A study of Homo sapiens with 6 samples.

Results

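This account is about microRNA (miRNA) hairpins that entered the public miRNA registry late, taken as those whose number after hsa-mir- is 540 or more, with mir-10399 and mir-3928 left out by the same rule. They comprise 32 of the 147 hairpins in the deposited table and, with the copies of a miRNA counted once, 26 of 127 miRNAs. They were set beside the 94 miRNAs (107 hairpins) numbered under 540. The 5 let-7 miRNAs carry no such number and belong to neither group. A high number records when a hairpin was named, and evolutionary age was not measured here. Many late entries are known from primates only, as miR-941, or derive from transposons, as the miR-548 family, yet miR-574, miR-615, miR-652 and miR-671 are also known in mouse. Neither mir-10399 nor mir-3928 is a neutral omission: their scores, 0.964 and 0.413 for mir-10399 and 0.513 and 0.108 for mir-3928 (DICER-WT first), were both lower without the helicase domain and gave larger decreases than any of the 26 miRNAs kept.

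The cells were HCT116 DICER-KO, a colorectal carcinoma line without its own DICER, rescued with 1 of 2 plasmids, pXG-DICER-WT for full-length DICER or pXG-DICER-delHelicase for DICER without its helicase domain. Each rescue had 3 samples, collected 48 h after transfection. All samples therefore share the knockout, the parental line and expression from a plasmid. The labels do not say whether samples of a group were separate cultures or whether the knockout line is 1 clone, and the table holds no value that checks the knockout or the rescues. The table holds 1 number per hairpin and rescue, headed as a global variation and called the variation score below. It has neither a value per sample nor a read depth. No difference below has a replicate check or a test between the rescues, and low scores could rest on few reads. A difference is given as the DICER-delHelicase score minus the DICER-WT score.

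DICER cuts a precursor miRNA near its apical loop and so fixes the 5′ end of the strand from the 3′ arm (3p), which sets the seed, the stretch by which a miRNA recognises its targets. Its PAZ domain holds the open end of the precursor, paired RNase III domains make the cut, and the N-terminal helicase domain lies next to the apical loop. An irregular cut gives the same miRNA several 5′ ends, and so several seeds. Many late-numbered hairpins sit in introns or exons of host genes and give little mature product, which is known to make their arm assignment less secure than that of the long-studied families.

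The hairpins below are shown as deposited, 5′ to 3′, with the miRNA from the 3′ arm in capitals as RefSeq (GRCh38.p14) gives it. They were picked as the largest differences in each direction and the lowest scores. The mir-3158 copies and mir-576 had the largest increases whose hairpins are shown.
mir-3158-1: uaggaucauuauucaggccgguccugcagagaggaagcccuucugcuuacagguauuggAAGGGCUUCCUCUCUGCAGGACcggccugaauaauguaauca
mir-3158-2: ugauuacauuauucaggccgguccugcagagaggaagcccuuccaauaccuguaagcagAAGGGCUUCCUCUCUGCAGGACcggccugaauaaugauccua
mir-576: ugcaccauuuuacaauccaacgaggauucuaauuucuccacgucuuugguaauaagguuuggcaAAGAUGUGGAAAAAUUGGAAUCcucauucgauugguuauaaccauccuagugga
The next hairpins had the 3 largest decreases among those kept by the rule.
mir-760: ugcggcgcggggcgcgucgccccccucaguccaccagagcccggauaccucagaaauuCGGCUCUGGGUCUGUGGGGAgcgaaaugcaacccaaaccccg
mir-590: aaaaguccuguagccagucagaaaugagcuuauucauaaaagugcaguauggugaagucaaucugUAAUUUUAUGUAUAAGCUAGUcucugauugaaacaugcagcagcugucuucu
mir-1278: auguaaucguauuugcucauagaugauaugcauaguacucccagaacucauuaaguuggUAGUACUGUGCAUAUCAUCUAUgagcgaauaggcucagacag
Both remaining hairpins scored 0 with each rescue.
mir-676: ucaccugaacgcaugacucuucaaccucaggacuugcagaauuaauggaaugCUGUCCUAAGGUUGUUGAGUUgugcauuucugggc
mir-3187: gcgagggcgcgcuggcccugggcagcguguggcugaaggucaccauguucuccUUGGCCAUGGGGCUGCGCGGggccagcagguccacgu
The hairpin of mir-1307, which had the second-ranked increase, lies in an untranslated exon, and only its mature miR-1307-3p is printed, here with the seed (bases 2 to 8) in capitals.
mir-1307: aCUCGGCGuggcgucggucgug

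The medians of the late-numbered miRNAs were close to each other with both rescues, but not for every choice of members or summary. With full-length DICER their median was 0.0440, and the middle of the set ran from 0.00400 to 0.123 (lower and upper quartile). Without the helicase domain the median was 0.0435 and the quartiles were 0.00766 and 0.324. The ratio of these medians was 0.989. Among miRNAs numbered 1000 or more the medians were 0.0155 and 0.0233, among those numbered 600 or more 0.0278 and 0.0411, and the means of all 26 were 0.0876 and 0.171. For miRNAs numbered under 540 the medians were 0.0882 and 0.158, a ratio of 1.79. The median difference was 0.00548 among the late-numbered miRNAs (exact 95% interval -0.000637 to 0.0891) and 0.0447 among those numbered under 540 (0.0116 to 0.0988). These intervals overlap, treat miRNAs as independent draws and hold no spread between samples. The upper quartiles of the late-numbered scores were far apart while the medians were not. As means, the differences were 0.0837 and 0.110, which lie much closer together than the medians. These are descriptions of the scores, since hairpins are not replicates of a condition.

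Counts of direction leaned the same way in both groups. The DICER-delHelicase score was the higher one in 16 of 26 late-numbered miRNAs (61.5%, exact Clopper-Pearson 95% interval 40.6 to 79.8), the lower one in 8 and equal in 2. This interval treats miRNAs as independent draws and holds no spread between samples. Over all 127 miRNAs of the table the DICER-delHelicase score was higher in 70.1%, and among those numbered under 540 in 69 of 94 (73.4%). An increase of at least 0.05 was seen in 8 late-numbered miRNAs (30.8%), against 45.7% of all miRNAs and 48.9% of those numbered under 540. A decrease of that size was seen in 1 (3.85%), against 12.6% of all. With mir-10399 and mir-3928 kept there were 3 such decreases among 28 miRNAs (10.7%), 57.1% scored higher with DICER-delHelicase and the mean difference was 0.0436, so the low count of decreases depends on leaving these hairpins out.

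Many late-numbered miRNAs had scores near 0. Both scores were under 0.05 in 12 of 26 (46.2%) and in 22 of 94 numbered under 540 (23.4%). Both were under 0.01 in 7 and in 10, respectively. A score of exactly 0 with at least 1 rescue occurred in 4 late-numbered miRNAs and in 3 numbered under 540. At the other end, no late-numbered miRNA scored over 0.5 with DICER-WT and 2 did with DICER-delHelicase, against 6 and 21 of those numbered under 540. The count with DICER-WT depends on the rule, since mir-10399 and mir-3928 both exceeded 0.5 and with them it was 2 of 28 (7.14%), against 6.38% of those numbered under 540.

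Above a DICER-WT score of 0.05 the differences of late-numbered and other miRNAs had similar medians only with mir-10399 and mir-3928 left out. The 12 late-numbered miRNAs of this kind had a median difference of 0.118, with 8 higher and 4 lower, and 7 increases of at least 0.05 (58.3%). With mir-10399 and mir-3928 kept, the median over 14 was 0.0706, with 8 higher and 6 lower. The 61 numbered under 540 had a median of 0.112, with 44 higher and 17 lower, and 37 such increases (60.7%). Where the DICER-WT score was under 0.05, the 14 late-numbered miRNAs had a median difference of 0.00208 and the 33 others 0.0116. The DICER-WT score is itself part of the difference, so this split limits the size of a decrease in the low set by its construction. An increase of at least 0.05 was seen in 1 of the 14, miR-615-3p, and in 9 of the 33. The scores of the rescues followed each other across the 26 late-numbered miRNAs (Spearman's rho 0.884, Pearson's r 0.734), with each pair of scores read from the same 2 sets of libraries. With mir-10399 and mir-3928 kept, rho was 0.856 and r was 0.489. Among miRNAs numbered under 540, rho was 0.784 and r was 0.618.

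The largest increase belonged to miR-3158-3p, whose hairpins mir-3158-1 and mir-3158-2 are annotated on the plus and minus strand of chr10:101601417-101601497. The plus-strand copy lies in an intron of DPCD. Averaged over the copies, it scored 0.141 beside full-length DICER and 0.814 beside the truncated form, a difference of 0.673. The interval is close to a perfect inverted repeat, so that both strands give the same mature miRNA and, as the sequences above show, the copies differ mainly in the loop. Reads of the shared mature sequence cannot be assigned to either copy.

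The next increases came from hairpins of quite different build. For miR-1307-3p, from an untranslated exon of ATP5MD, which encodes a small ATP synthase component (chr10:103394253-103394401, minus strand), the scores were 0.349 and 0.784. For miR-576-3p, from an intron of SEC24B, a vesicle coat gene (chr4:109488698-109488795, plus strand), they were 0.0993 and 0.480. The transposon-derived miR-548e-3p scored 0.123 and 0.360. For miR-642a-3p, from an intron of the incretin receptor gene GIPR (chr19:45674928-45675024, plus strand), the scores were 0.122 and 0.337. These miRNAs had DICER-WT scores from 0.0993 to 0.349, so none began at the floor of the scale.

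Smaller increases of at least 0.05 completed this set. The scores of miR-4664-3p were 0.224 and 0.349. Those of miR-1301-3p, from an intron of the DNA methyltransferase gene DNMT3A (chr2:25328640-25328721, minus strand), were 0.176 and 0.287. For miR-615-3p, from the HOXC gene cluster in an intron shared by HOXC4 and HOXC5 (chr12:54033950-54034045, plus strand), they were 0.0217 and 0.111, so that the score was 5.11 times as high without the helicase domain.

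Decreases were small in the late-numbered set, but the rule had left out the larger ones of mir-10399 (-0.551) and mir-3928 (-0.405). The largest among the miRNAs kept was that of miR-760 (chr1:93846832-93846911, plus strand, in no gene on that strand), with 0.265 and 0.208. For miR-590-3p, from an intron of EIF4H, a translation factor gene (chr7:74191198-74191294, plus strand), the score went from 0.0485 to 0.00383, which is 7.90% of the DICER-WT value. The scores of miR-1278 were 0.0725 and 0.0411. Those of miR-671-3p, whose hairpin overlaps coding sequence of CHPF2, a chondroitin synthesis gene (chr7:151238421-151238538, plus strand), were 0.0664 and 0.0458.

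Next in order were differences of about 0.01 or less. The miRNA miR-625-3p, from an intron of the fucosyltransferase gene FUT8 (chr14:65471102-65471186, plus strand), had the highest DICER-WT score of the late-numbered set and almost the same score without the helicase domain, 0.354 and 0.342. For miR-3177-3p, in an intron of MAPK8IP3, a scaffold of the JNK pathway, the scores were 0.0138 and 0.00809. For miR-652-3p, in an intron of TMEM164 on the X chromosome, they were 0.0278 and 0.0231. The score of miR-4326 was 0.000637 with DICER-WT and listed at 0 with DICER-delHelicase.

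Several miRNAs had scores that were slightly higher with DICER-delHelicase. The scores were 0.106 and 0.137 for miR-3662, in an intron of HBS1L, and 0.0395 and 0.0604 for miR-574-3p, in an intron of FAM114A1. For miR-3615, in an untranslated exon of SLC9A3R1, a membrane scaffold gene, they were 0.0155 and 0.0233. For miR-1180-3p, in an intron of the ciliary gene B9D1, they were 0.000475 and 0.0137. This was the largest ratio of the set, 28.9, on a difference of only 0.0132. The scores of miR-7706, in an untranslated exon of AKAP13, were 0.00334 and 0.00906. Those of miR-7974, in an intron of ZNF653, were 0.00600 and 0.00733.

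Low scores were also listed for hairpins with several copies. The copies of mir-941 with a RefSeq hairpin sit in an intron of DNAJC5 on chromosome 20, and mir-941-2 had no such entry. All 5 copies were listed with 0.00228 and 0.00752. They hold 2 distinct hairpin sequences, and 4 of them are identical, so their shared score counts as 1 measurement. Both copies of miR-548o-3p were listed at 0 with DICER-WT and at 0.00282 with DICER-delHelicase. For miR-676-3p, from an intron of the ectodysplasin gene EDA (chrX:70022857-70022923, plus strand), and for miR-3187-3p (chr19:813584-813653, plus strand), both scores were listed at 0. Whether these values come from precise cuts or from few reads cannot be told apart without the depth.

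The number alone drew a sharp line through unlike neighbours. Directly above 540 stood mir-548e and the mir-548o copies, with the scores given above. The highest number under it was that of mir-505, with 0.685 and 0.614.

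Some registry names give the arm of a miRNA. Such names were carried by 18 late-numbered miRNAs, and 8 had no arm in the name. A name without an arm does not mean that the arm is unknown. All 23 late-numbered miRNAs matched in RefSeq, with or without an arm in the name, lay on the 3′ side of the predicted loop. All 8 increases of at least 0.05 were among the 18. These 18 also had higher scores, with medians of 0.0574 (DICER-WT) and 0.0856 (DICER-delHelicase). For the 8 without an arm the medians were 0.0107 and 0.0162. The 8 without an arm were higher in 5 and lower in 3, with differences from -0.0571 to 0.0305. Of the 6 such miRNAs numbered under 540, 3 had an increase of at least 0.05.

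The table sorts hairpins by a 2-nt class, Yes or No, derived per its header from isoforms seen with DICER-WT. Late-numbered miRNAs were Yes in 11 of 26 (42.3%), No in 13 and mixed between copies in 2. Those numbered under 540 were Yes in 44 of 94 (46.8%), No in 44 and mixed in 6. Late-numbered miRNAs of class Yes had median scores of 0.0155 (DICER-WT) and 0.0231 (DICER-delHelicase). For those of class No the medians were 0.106 and 0.137. Among miRNAs numbered under 540 the order was the other way round, with 0.110 and 0.191 for Yes and 0.0702 and 0.137 for No. DICER-delHelicase scores were higher in 7 of 11 late-numbered miRNAs with Yes (63.6%) and in 7 of 13 with No (53.8%). This order depends on the rule, since mir-10399 and mir-3928 are both Yes and both scored lower with DICER-delHelicase. With them kept, 7 of 13 (53.8%) were higher in each class. Over all miRNAs of the table the shares were 66.1% (39 of 59) and 73.3% (44 of 60), and among those numbered under 540 they were 70.5% and 77.3%.

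In the mixed miRNAs the class differed between copies with the same 3p sequence. The mir-3158 copies have identical mature sequences on both arms and nearly equal scores, but mir-3158-1 was Yes and mir-3158-2 No. Likewise mir-548o was No and mir-548o-2 Yes for the same miR-548o-3p.

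Whether the class follows the 2-nt 3′ overhang that RNase III enzymes are known to leave was looked at in the RefSeq arms. The overhang was counted as the bases by which the annotated 5p product reaches past the predicted pairing partner of the 3p's first base. For a miRNA with several copies the first was used, so that miR-3158-3p counts under Yes here. The overhang was 2 nt in 5 of 9 late-numbered miRNAs with Yes and in 3 of 6 with No. Among those numbered under 540 it was 2 nt in 22 of 36 with Yes and in 18 of 27 with No. In neither group was the share with 2 nt clearly higher in class Yes.

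The table also gives an offset of the main 5′ end seen with DICER-WT, without naming its reference position. The main DICER-WT 5′ end lay at offset 0 for all 26, while 6 of 94 miRNAs numbered under 540 had another offset. This count again depends on the rule, since mir-10399 had an offset of -4.

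Predicted secondary structures were obtained for every deposited hairpin with RNAfold. Late-numbered hairpins were richer in G and C, with a median of 61.8% (quartiles 46.6 and 68.5) against 51.8% (44.3 and 58.9). Their folding energy per nucleotide was lower, with a median of -0.485 kcal/mol (quartiles -0.551 and -0.396) against -0.416 (-0.467 and -0.375). Other features hardly differed. The median terminal loop was 7 nt against 6.5 nt, the main stem had 35.5 against 35 base pairs, and 18.8% against 18.3% of stem nucleotides were unpaired. With copies averaged, unpaired stem nucleotides ranged from 2.27% to 36.6% among late-numbered miRNAs and from 7.37% to 28.9% among the others. The mir-3158-2 stem taken alone had 0% unpaired.

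Some late-numbered hairpins had long uninterrupted runs of base pairs. With the runs of copies averaged, the longest such run in any miRNA numbered under 540 was 21. Averaged in the same way, 4 late-numbered miRNAs exceeded it, miR-3158-3p (38 pairs in mir-3158-1 and 37 in mir-3158-2), miR-625-3p (37), miR-1278 (30) and miR-642a-3p (22). A copy of 1 further late-numbered miRNA had a run of 23 pairs, but the average over its copies did not exceed 21. The mir-625 hairpin is shown because it matches mir-3158 in this respect and not in its scores.
mir-625: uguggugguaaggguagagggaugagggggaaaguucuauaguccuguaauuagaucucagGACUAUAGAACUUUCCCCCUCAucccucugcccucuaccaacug
The scores of these 4 miRNAs did not share a direction. Those of miR-3158-3p and miR-642a-3p were higher with DICER-delHelicase by 0.673 and 0.215, and the differences of miR-625-3p and miR-1278 were -0.0118 and -0.0314. The mir-3928 hairpin left out by the rule, with a run of 19 pairs, was lower as well.

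Structural features were also set against the difference across the 26 late-numbered miRNAs. Spearman's rho with the difference was -0.142 for loop size, -0.145 for unpaired stem nucleotides, 0.0725 for energy per nucleotide, 0.0804 for the longest run and -0.0233 for GC content. Pearson's r was -0.0134 for loop size, -0.317 for unpaired stem nucleotides, -0.151 for energy per nucleotide, 0.362 for the longest run and -0.265 for GC content, so that the coefficients differed in size and, for energy, in sign. Among the 94 numbered under 540, rho for loop size was -0.327 and r was -0.281. These correlations are across miRNAs whose scores come from the same libraries, and are given without a test.

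Mature sequences were matched in RefSeq for 23 of the 26 late-numbered miRNAs and for 87 of 94 numbered under 540. The 23 had 23 different seeds, and none was shared with another matched miRNA of the table. A length of 24 nt was found in 4 of 23 (miR-1301-3p, miR-3662, miR-7706 and miR-7974) and in 0 of 87 numbered under 540. All 4 scored higher with DICER-delHelicase, by 0.00133 to 0.111, as did 70.1% of all miRNAs of the table. Only 1 of the 4 had an increase of at least 0.05. The first base was U in 10 of 23 (43.5%) and in 34 of 87 (39.1%), and it was paired in the predicted structure in 19 of 23 (82.6%) and in 74 of 87 (85.1%).

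The lists of special origin were thinly represented. None of the listed mirtrons, which bypass DROSHA by splicing, was among the late-numbered hairpins, and of the listed X-linked cluster members only mir-652 was. Of the 21 late-numbered miRNAs with a RefSeq hairpin, 15 lay in introns on the same strand, 4 overlapped exons and 2 lay in no annotated gene on their strand. DICER-delHelicase scores were higher in 10 of the 15 intronic miRNAs and in 3 of the 4 exonic ones, near the 70.1% of all miRNAs of the table. Of the 2 in no gene, 1 was lower and 1 equal.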

How the data were processed

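Small RNAs of 3 samples per rescue were sequenced. They came from 10 µg of total RNA on a 12% urea gel and went into TruSeq libraries, per the labels' protocols. The submitters' processing notes name cutadapt, Bowtie2, bedtools and GRCh38, without versions or settings. The authors deposited 1 variation score per hairpin and rescue (294 lines), with neither its formula nor how samples were combined. It cannot be interpreted as a count or a fraction. They also deposited an offset score for the 5′ end and a 2-nt class.

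Copies of a miRNA were averaged. Hairpins were folded with RNAfold (ViennaRNA 2.7.2, 37 °C), and the main stem was the one with the most enclosing pairs. The folding measures were checked on artificial hairpins. All 25 member hairpins matched in RefSeq were contained in the deposited sequences, which add 10 nt on each side. Host genes come from GENCODE release 29 (GRCh38). Its coordinates were identical for all 25. The members and lists were chosen with earlier results of these data known. Every member is named with both scores. The mir-625 sequence and the comparisons by name, run length and mature length were chosen after values were seen. Python 3.11.15, pandas 2.3.3 and scipy 1.17.1 were used. No test was run, since the table has no value per sample.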

Additional observations from a re-analysis of the deposited data

How the results depend on the processing

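Of 70 alternative values, 69 stayed inside the exact 95% interval of the value reported and none changed sign, which says little at 26 miRNAs because these intervals are wide. They also treat miRNAs as independent draws and hold no spread between samples. The exception was the median difference, which was 0.111 instead of 0.00548 among the 13 miRNAs with a mean score of at least 0.05, a choice that removes the scores near 0 by its construction. As a mean it was 0.0837 and without the 4 miRNAs that scored 0 with either rescue 0.0105. Median scores also moved by more than 1.5 times: with every hairpin counted they were 0.0247 (DICER-WT) and 0.0232 (DICER-delHelicase), for numbers of 1000 or more 0.0155 and 0.0233, for numbers of 600 or more 0.0278 and, less far from the reported value, 0.0411, without the 4 miRNAs that scored 0 they were 0.0695 and 0.0856, and as means 0.0876 and 0.171. The cause was not tested. Without miR-3158-3p the median difference was 0.00524. Adding the let-7 hairpins to those numbered under 540 gave a median difference of 0.0537 instead of 0.0447. The alternatives without miR-3158-3p, without scores of 0 and with let-7 were chosen after seeing the data. No paired analysis was possible because each hairpin has 1 value per rescue, and leaving out replicates could not be done for the same reason. Without read numbers, scores close to 0 cannot be weighed.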
